A study of Mus musculus with 18 samples.

Results

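The 9 genes that encode carrier proteins of blood plasma were followed through all 6 lists of ChIP-Seq regions: Alb, Afp and Afm, which lie side by side and were treated as 1 locus, and Gc, Ttr, Trf, Hpx, Ahsg and Rbp4. These are 9 of 21938 protein-coding genes in GENCODE vM21 (mm10), in 7 loci, and each was taken with its gene body and 50 kb on either side. Lamin B1 and H3K9me3 (trimethylated lysine 9 of histone H3) were profiled in livers of male C57BL/6 mice aged 3 months (young) and 21 months (old), with 2 replicates for each antibody and age. Foxa2 was profiled in livers of male wild-type (WT) and Zmpste24 KO mice, also C57BL/6 and aged 12 weeks, with 3 replicates per genotype. Zmpste24 is the protease that matures prelamin A, the mutants lack it in all tissues, and they stand in the study as a model of nuclear lamina defects in young animals. No treatment was given to any group.

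Each list gives positions only, from the merged replicates of a condition. A gene was therefore either touched by a called region or not, and there was no signal, depth or replicate spread from which a difference between conditions could be tested. The young lamin B1 list held 1624 regions over 466 Mb and the old list 1519 regions over 930 Mb, although the study sequenced the young libraries more deeply. The H3K9me3 lists held 2784 (young) and 2496 (old) regions over 576 and 617 Mb, and their ages rest on the names of the lists alone. They hold fewer regions than the study's text gives for this mark, a difference that bears on every H3K9me3 call below and was not resolved. The Foxa2 lists held 4960 (WT) and 8177 (KO) sites with median widths of 941 and 889 bp, after the study reduced the KO reads to the WT number. The liver label and the loss of Zmpste24 could not be checked from positions. Whole liver also contains non-hepatocytes, and how many cells of which type carried a region cannot be told apart here. Shares are printed with Wilson intervals at 95% where useful, which cover counting error only.

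Hepatocytes secrete most plasma carriers, and most of these genes are highly active in the adult liver. Albumin carries fatty acids and sets the oncotic pressure of blood, alpha-fetoprotein (Afp) is its fetal relative, afamin (Afm) binds vitamin E and Gc is the vitamin D-binding protein, all of 1 gene family on chromosome 5. Transthyretin (Ttr) carries thyroxine and holds retinol-binding protein 4 (Rbp4), the retinol carrier, in the circulation. Transferrin (Trf) carries iron, hemopexin (Hpx) binds free heme, and Ahsg (fetuin-A) binds calcium phosphate and restrains calcification. Foxa2 is a winged-helix pioneer factor that can bind its sites in closed chromatin, and control regions of Alb and Ttr were among the sequences through which the FoxA proteins were first characterized. Lamin B1 lines the inner nuclear membrane, where lamina-associated domains, usually poor in active genes, contact it, and H3K9me3 marks heterochromatin.

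Foxa2 sites were called around all of the loci in the mutants and around all but Rbp4 in the WT. The 21 distinct sites comprised 10 called in both genotypes, 2 called in the WT alone and 9 called in the KO alone. The sequences below are stretches of the sites nearest to the members other than Ttr, Afp and Afm. In addition a site 13.1 kb upstream of Alb and a site 4.12 kb upstream of Ahsg are shown. Both were called in both genotypes and were chosen after the values were seen. The shared Ahsg site 13.9 kb upstream is not printed. All are plus-strand sequence of GRCm38 (mm10), taken from the bases common to the WT and KO sites where both were called. Distances and places within a gene refer to the GENCODE gene body. Capitals mark a core of the forkhead motif on either strand, which is TGTTTAC, the variant spelled TATTTAC or the variant spelled TGTTTGC. The last of these was added after the sequences had been seen.
Alb, 13.1 kb upstream, WT and KO, chr5:90447679-90447859: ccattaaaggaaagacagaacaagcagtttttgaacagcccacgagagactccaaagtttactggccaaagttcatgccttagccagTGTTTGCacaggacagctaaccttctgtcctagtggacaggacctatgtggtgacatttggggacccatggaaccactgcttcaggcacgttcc
Alb, 10.8 kb upstream, WT alone, chr5:90450117-90450297: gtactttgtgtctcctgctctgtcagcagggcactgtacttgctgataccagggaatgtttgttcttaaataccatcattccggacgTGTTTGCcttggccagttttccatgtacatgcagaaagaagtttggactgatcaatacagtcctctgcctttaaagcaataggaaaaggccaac
Alb, 6.18 kb into the gene, KO alone, chr5:90466985-90467165: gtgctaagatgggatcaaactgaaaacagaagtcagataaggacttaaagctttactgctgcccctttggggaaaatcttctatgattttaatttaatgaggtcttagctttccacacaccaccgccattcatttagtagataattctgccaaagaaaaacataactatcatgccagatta
Gc, 9.27 kb upstream, WT and KO, chr5:89467075-89467255: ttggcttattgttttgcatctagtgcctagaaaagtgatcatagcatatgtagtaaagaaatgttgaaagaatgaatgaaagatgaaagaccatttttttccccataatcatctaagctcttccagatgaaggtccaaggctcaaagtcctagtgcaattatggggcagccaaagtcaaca
Trf, 4.26 kb upstream, WT and KO, chr9:103234598-103234778: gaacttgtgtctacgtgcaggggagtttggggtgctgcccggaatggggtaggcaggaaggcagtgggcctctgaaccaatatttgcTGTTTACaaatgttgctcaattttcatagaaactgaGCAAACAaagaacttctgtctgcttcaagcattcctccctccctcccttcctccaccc
Hpx, upstream part of the site over the start site, WT and KO, chr7:105600211-105600391: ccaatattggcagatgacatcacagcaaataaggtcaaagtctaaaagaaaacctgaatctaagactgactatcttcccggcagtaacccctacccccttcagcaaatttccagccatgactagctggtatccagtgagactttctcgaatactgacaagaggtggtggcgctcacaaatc
Ahsg, 4.12 kb upstream, WT and KO, chr16:22887059-22887239: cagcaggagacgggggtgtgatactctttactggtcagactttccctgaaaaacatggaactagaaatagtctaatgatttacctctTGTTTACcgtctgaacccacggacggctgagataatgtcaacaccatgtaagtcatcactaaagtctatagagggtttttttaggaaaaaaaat
Ahsg, 0.567 kb into the gene, WT and KO, chr16:22891849-22892014: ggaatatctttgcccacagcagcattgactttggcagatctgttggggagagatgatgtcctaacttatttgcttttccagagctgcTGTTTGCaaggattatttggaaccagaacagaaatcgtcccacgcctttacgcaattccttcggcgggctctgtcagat
Rbp4, upstream part of the site over the start site, KO alone, chr19:38125469-38125562: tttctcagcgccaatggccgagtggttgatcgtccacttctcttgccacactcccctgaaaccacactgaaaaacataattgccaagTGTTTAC

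The Alb stretch at 13.1 kb and the Ahsg stretch at 0.567 kb hold TGTTTGC. The Trf stretch holds both TGTTTAC and, on the other strand, TGTTTGC, and the Ahsg stretch at 4.12 kb holds TGTTTAC. The shared Gc and Hpx sites hold none of the 3 words. Of the 21 distinct sites 16 held at least 1 of the words, 8 of the 10 called in both genotypes and 6 of the 9 called in the KO alone. By comparison, at least 1 of the words stood in 56.7% of all WT sites and in 52.3% of all KO sites. For TGTTTAC alone, 4 of 12 whole WT sites of the loci (33.3%) and 7 of 19 whole KO sites (36.8%) held it, beside 27.7% and 23.4% of all sites of the lists. Among all sites called in both genotypes the word was more frequent, with 43.7% in the WT and 42.4% in the KO. Of the 10 distinct sites of the loci called in both genotypes, 4 held it in the bases common to both, a share near these. The counts are small, and the Wilson interval of the WT share of 33.3% ran from 13.8% to 60.9%. A match describes the letters and does not locate a binding event.

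Foxa2 sites were called near most of the members, whether these were counted by gene or by locus. A WT Foxa2 site touched the window of 8 of 9 members (88.9%, 6 of 7 loci), where 30.5% of all protein-coding genes were touched, and a KO site touched 9 of 9 (100%), where 38.5% of all genes were touched. A site called in both genotypes was found in the windows of 8 of 9 members, against 10.9% of all genes. Rbp4 was the exception. The median gene body was 15.7 kb for the members and 17.4 kb for all genes, and the part of gene length in these counts was not tested. Start sites lay within 1 kb of a WT Foxa2 site in 3 of 9 members (Ttr, Hpx and Ahsg), beside 3.43% of all genes, and within 1 kb of a KO site in 4 of 9 (these 3 and Rbp4), beside 2.53% of all genes.

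**Figure D1:**
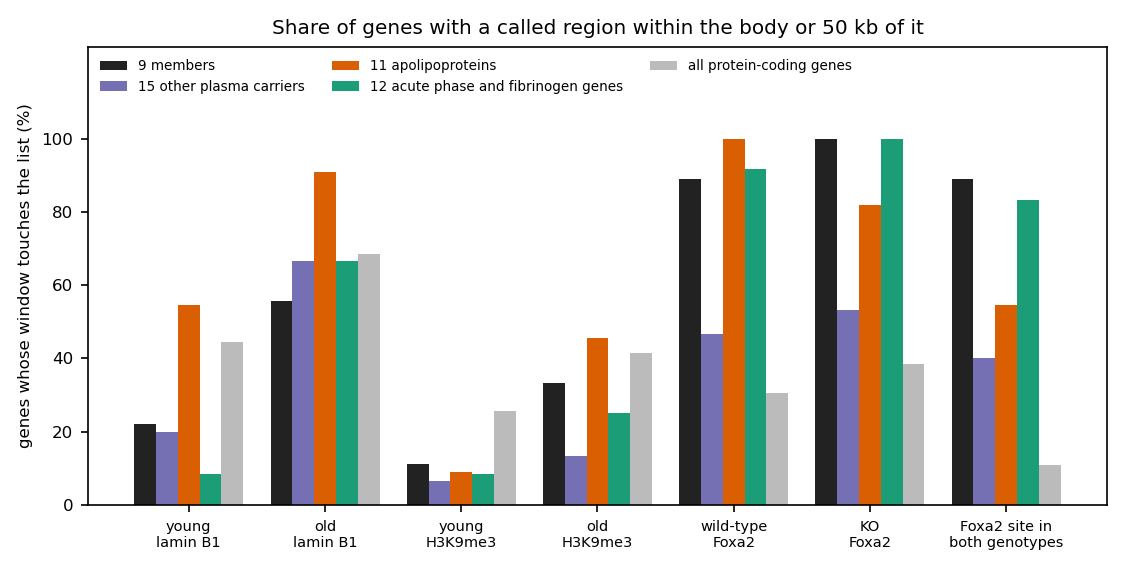
Share of genes (percent, y axis) whose body or 50 kb flanks touch each list, and of those with a Foxa2 site called in both genotypes (x axis), for the 9 members, 3 comparison lists and all 21938 protein-coding genes (grey). The black bars of the members stand above the grey bars in the 3 Foxa2 groups, with 88.9% against 10.9% for sites of both genotypes. In the other 4 groups they stand below, but the albumin locus counts there as 3 genes, and by locus old lamin B1 (71.4%) and old H3K9me3 (42.9%) lie slightly above.

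The sites of the members were also shared between genotypes more often than the average site. Of the 12 WT sites 10 overlapped a KO site by at least 1 bp (83.3%, Wilson interval 55.2% to 95.3%), while 28.6% of all WT sites within 50 kb of a protein-coding gene did. Of the 19 KO sites 10 overlapped a WT site (52.6%, 31.7% to 72.7%), while 19.6% of all KO sites near genes did. Sites of a locus share their surroundings and are not independent draws, so the intervals are a description. In the shared pairs the WT site was the wider in 8 of 10, with medians of 850 bp (WT) and 610 bp (KO), and over all shared sites the WT site was the wider in 55.8%. Of the distinct sites 15 lay between genes, 4 in introns and 2 had their midpoint in a first exon, and 9 lay more than 10 kb from the start site of the nearest member.

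The albumin locus (chr5:90410897-90603543 with flanks) showed the largest difference in number between the genotypes, with 3 WT sites and 6 KO sites. Alb (chr5:90460897-90476602, plus strand) had no Foxa2 site at its start site in either list. Its site 13.1 kb upstream was called in both genotypes and was 556 bp wide in the WT and 267 bp in the KO. The site 10.8 kb upstream, 841 bp wide, was called in the WT alone, so the nearest WT site began 10.3 kb from the Alb start site. The KO list had 4 sites of its own, 35.8 and 21.5 kb upstream and 6.18 and 10.2 kb inside the gene, both of these in introns. With 5 KO sites in its own window Alb stood in the top 0.720% of protein-coding genes, while 9.58% of genes had at least its 2 WT sites.

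Afp (chr5:90490737-90508907) and Afm (chr5:90518932-90553543), on the same strand, had no site of either genotype in their bodies. The start site of Afp, which is nearly silent in adult liver, lay 40.2 kb from the nearest WT site and 19.1 kb from the nearest KO site. The Afm start site lay 41.2 kb from a WT site and 41.0 kb from a KO site. These were the same site, 1818 bp wide in the WT and 1361 bp in the KO with 1211 bp in common, and it spanned the start of the next gene, 5830473C10Rik (Albfm1 in RefSeq, albumin superfamily member), at base 90561107. Thus the shared sites of the locus flanked the 3 genes on the outside. The sites within the cluster were called in the KO alone and lay in Alb.

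Gc (chr5:89417522-89457898, minus strand) had a shared site 9.27 kb upstream, which was 1423 bp wide in the WT and 457 bp in the KO and was entirely contained in the wider WT site. A KO site of 329 bp lay 52.5 kb downstream of the Gc start site and held TGTTTAC. No other protein-coding gene reached into the Gc window. For Trf (chr9:103204001-103230444, minus strand) the 2 lists had the same site, 4.26 kb upstream, of 596 bp (WT) and 416 bp (KO), and no other. The whole WT site held TGTTTAC at 2 positions and the KO site at 1.

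Ttr (chr18:20665280-20674321, plus strand) had the same 2 sites in both genotypes. A site over the start site was 882 bp wide in the WT and 840 bp in the KO with 685 bp in common, and held TATTTAC. The other, 23.5 kb upstream, was 577 bp wide in the WT and 343 bp in the KO. Hpx (chr7:105591613-105600137, minus strand) had a shared site over its start site, of 818 bp (WT) and 931 bp (KO). The KO list added a site 1.92 kb upstream and a site 9.89 kb downstream of the start site, 1599 and 1156 bp wide.

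Ahsg (chr16:22891277-22899449, plus strand) carried the most WT sites of the members, 4, a number reached by 0.912% of protein-coding genes, and 4 KO sites, reached by 1.67%. In all, 3 sites were common to both genotypes, 13.9 kb upstream in an intron of Dnajb11, 4.12 kb upstream and 0.567 kb inside the GENCODE gene body. The site 8.66 kb downstream of the start site, with its midpoint past the end of the gene, was called in the WT alone, and a site 9.69 kb upstream in the KO alone. The GENCODE start site of Ahsg lay 66 bp from the edge of a WT site and 261 bp from that of a KO site. The RefSeq promoter entry of Ahsg lies farther along, at chr16:22891765-22892064, inside the shared site at 0.567 kb. By that entry this site covers the Ahsg promoter, so its place inside the gene depends on the gene model.

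Rbp4 (chr19:38116629-38125281, minus strand) was the only locus without a WT site in its window, and its nearest WT site lay 65.9 kb away. A KO site of 577 bp covered its start site. The word TGTTTAC of that site lies within a RefSeq promoter of Rbp4, counted as the 250 bases before the start. Of the 7 members with a promoter entry in RefSeq (all but Ttr and Trf) only Rbp4 had TGTTTAC there, in 1 of its 2 promoter entries, as did 3.17% of 32851 promoter entries. Among the genotypes' lists Rbp4 thus showed a start-site call in the KO with none in the WT, and no replicate check of that difference was possible.

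**Figure D2:**
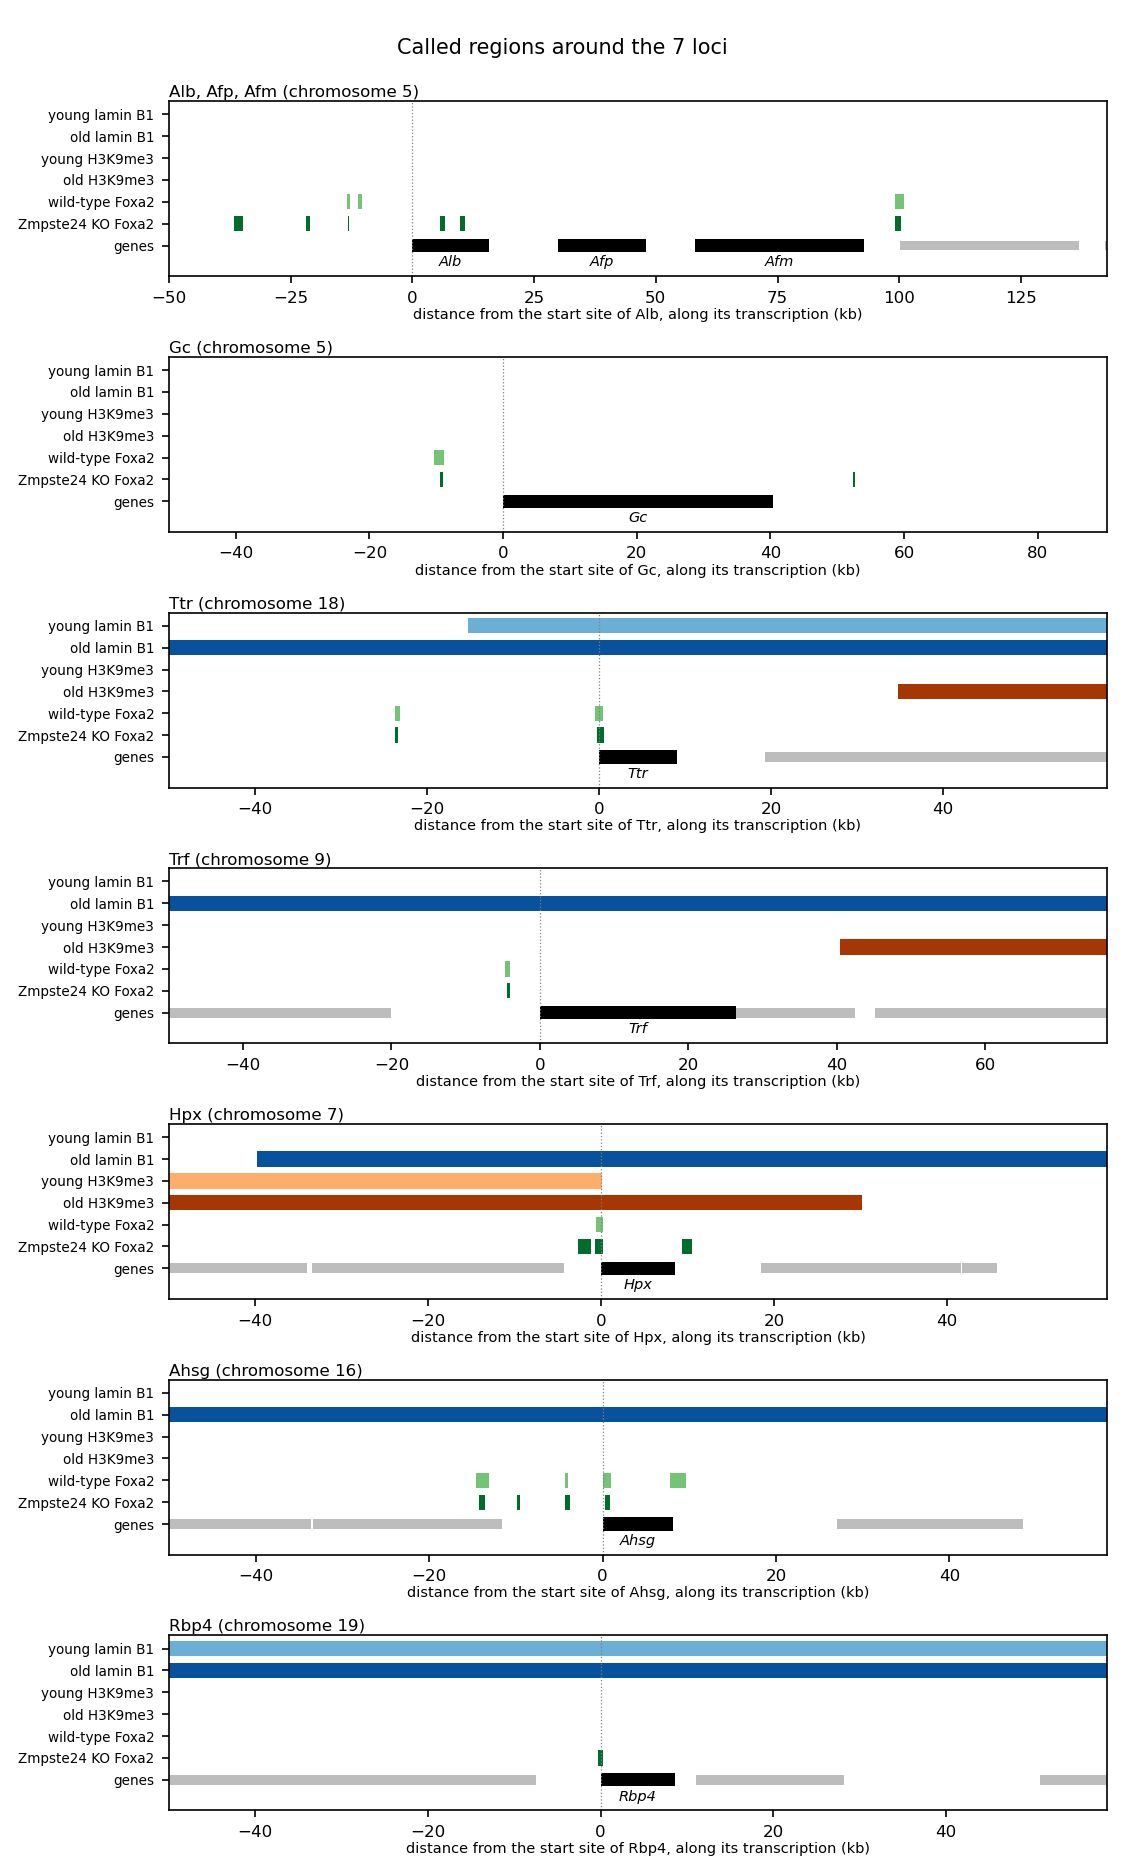
Maps of the 7 loci, drawn to scale, with the distance from the start site along the direction of transcription (kb, x axis), a row for each of the 6 lists and a row of genes (members black, neighbors grey). The albumin and Gc panels hold Foxa2 sites and no lamin B1 or H3K9me3 region, whereas the old lamin B1 bar fills the windows of Ttr, Trf, Ahsg and Rbp4 and 90.7% of that of Hpx.

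Lamin B1 divided the members by position. In young livers it touched the windows of Ttr and Rbp4, 2 of 9 members (22.2%), beside 44.4% of all protein-coding genes, and in old livers those of Ttr, Trf, Hpx, Ahsg and Rbp4, 5 of 9 (55.6%), beside 68.5%. Counted by locus these were 2 of 7 (28.6%) and 5 of 7 (71.4%), so that in old livers the members lay below the genome by gene and slightly above it by locus. The gene bodies themselves lay in young lamin B1 regions for 2 of 9 (38.8% of all genes) and in old ones for 5 of 9 (64.8% of all genes). Trf, Hpx and Ahsg were touched in old but not in young livers, which is 3 of 9 (33.3%), or 3 of 7 loci (42.9%), where 28.1% of all genes were. None of the 9 was touched in young livers alone, as 4.01% of all genes were. In windows of 10 kb, counted where at least 50% was covered, the young list took 20 of the 96 windows of the loci and the old list 59, with all 20 among the 59. Over the genome the lists covered 466 Mb (young) and 930 Mb (old). No share over all windows of the genome was set beside these counts, so they are a description of the loci alone.

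The old regions differed in extent from gene to gene. Trf lay in an old lamin B1 domain of 1950 kb (chr9:101810001-103760000), longer than 94.7% of the list and holding 16 protein-coding start sites. The nearest young domain began 79.6 kb upstream of the Trf start site and was 480 kb long. Ahsg lay in an old domain of 700 kb (chr16:22260001-22960000) and was 681 kb from the nearest young domain. Hpx lay in an old domain of 310 kb (chr7:105330001-105640000), with the nearest young domain, of 50 kb, at a distance of 630 kb. Of the 3 genes touched in old livers alone, Hpx and Ahsg were thus far from any young domain and Trf was nearer to the edge of one.

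Ttr and Rbp4 were inside lamin B1 domains at both ages. The young domain of Ttr, 250 kb (chr18:20650001-20900000), began 15.3 kb before its start site and covered 68.2% of its window, and the old domain, 290 kb (chr18:20530001-20820000), covered 100%. Rbp4 lay in a young domain of 670 kb (chr19:38030001-38700000), longer than 91.7% of the young list, and in an old domain of 1300 kb (chr19:36880001-38180000), longer than 88.8% of the old list. The edges of these domains moved between the lists, but the gene bodies stayed inside. Ttr therefore combined a Foxa2 site over its start site in both genotypes with a lamin B1 domain at both ages, in different animals.

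Alb, Afp, Afm and Gc stood apart, since no lamin B1 region touched them at either age. The nearest young region lay 1.76 Mb from the Alb start site, with 93.5% of autosomal genes nearer to one, and the nearest old region lay 1.26 Mb away, with 91.7% nearer. Gc was 758 kb (young) and 458 kb (old) from a region, with 80.4% and 83.5% of genes nearer. The median over the 20807 autosomal genes was 102 kb in young livers and 0 kb in old livers. The family lay in a single stretch without lamin B1, chr5:88700001-92560000 (3.86 Mb) in young and chr5:89000001-91720000 (2.72 Mb) in old livers. Such stretches were not rare, since 109 of 1603 gaps between young regions and 144 of 1498 gaps between old regions were longer.

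**Figure D3:**
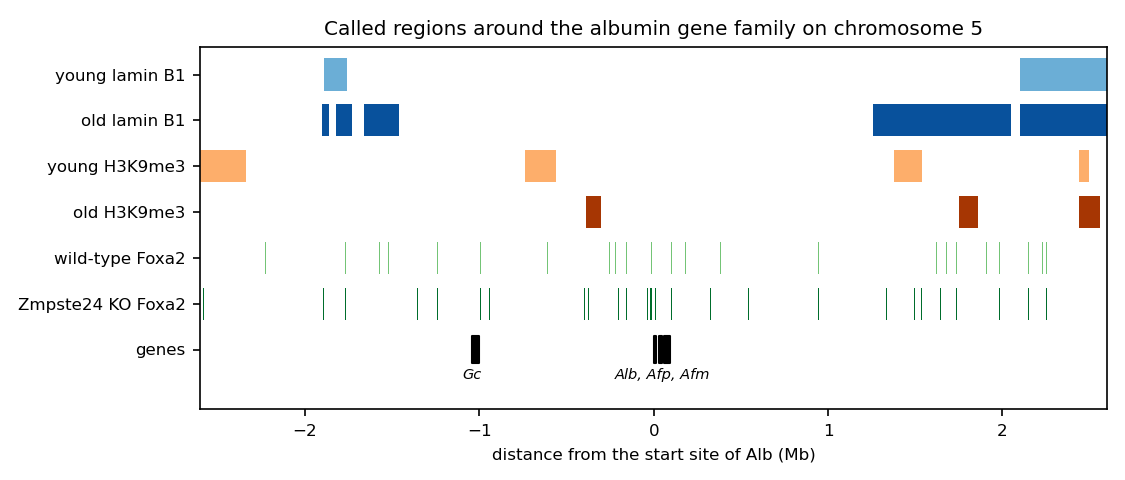
Called regions of the 6 lists (rows) around the albumin gene family, against the distance from the Alb start site (Mb, x axis; genes black). No lamin B1 bar at either age lies between Gc and Afm or for 1.20 Mb beyond the Afm start site, the 2 short H3K9me3 bars between Gc and Alb differ between the ages, and Foxa2 sites of both genotypes are scattered through the stretch.

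H3K9me3 reached few of the members. In young livers it touched only Hpx, 1 of 9 (11.1%), beside 25.6% of all genes, and in old livers Ttr, Trf and Hpx, 3 of 9 (33.3%), beside 41.6%. By locus these were 1 of 7 (14.3%) and 3 of 7 (42.9%), the latter slightly above the share of all genes. Ttr and Trf were touched in old and not in young livers, 2 of 9 (22.2%), beside 24.5% of all genes. In both of these the old region, 80 kb long, lay past the end of the member and covered all or part of a neighbor, starting 34.7 kb downstream of the Ttr start site, over B4galt6, and 40.4 kb downstream of the Trf start site, over Rab6b. Neither gene body of these members was inside. Of the 96 windows of 10 kb, 6 were covered in young and 16 in old livers, with all 6 among the 16. Over the genome the lists covered 576 Mb (young) and 617 Mb (old), and no share over all windows was set beside these counts.

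Hpx was the only member with its start site inside H3K9me3 regions. The start site lay close to the edge of the young region and 30.1 kb from the nearest edge of the old one. The young region (chr7:105600001-105730000, 130 kb) ended 0.136 kb inside the gene and covered 1.61% of the gene body. The old region (chr7:105570001-105790000, 220 kb) covered 100% of the gene body. Both were called on a grid of 10 kb, so the edge of the young region at the start site is no finer than that grid. In the old lists Hpx thus lay in both a lamin B1 and an H3K9me3 region, and its start site was also a Foxa2 site in the WT and KO livers of the other experiment. For Ahsg the nearest H3K9me3 region was 61.3 kb away in young and 71.3 kb in old livers, and for Rbp4 305 and 145 kb.

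**Figure D4:**
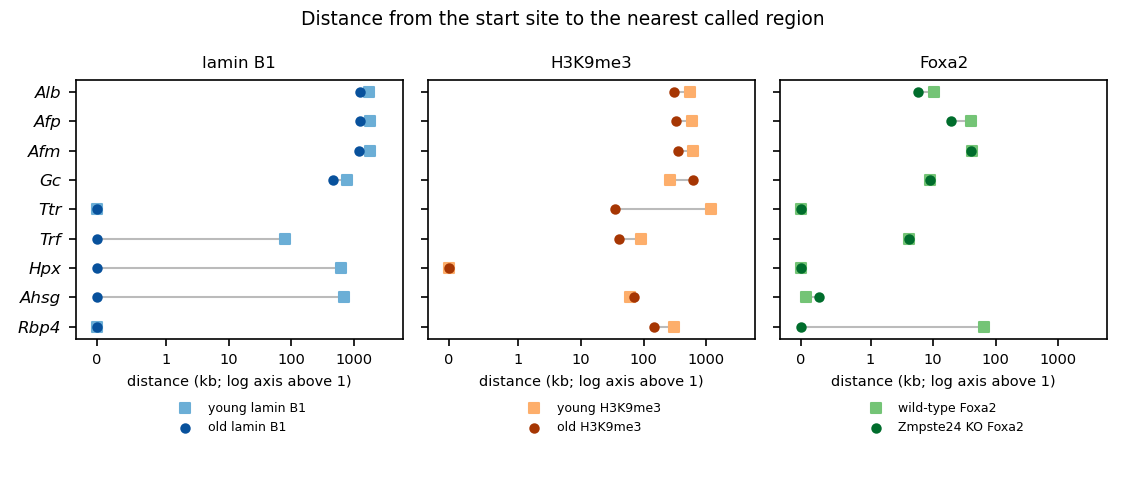
Distance from each member's start site to the nearest region (kb, x axis, logarithmic above 1 and linear below; 0 is inside) for lamin B1 and H3K9me3 in young (squares) and old (circles) livers and for Foxa2 in WT (squares) and KO (circles) livers. Trf, Hpx and Ahsg move to 0 in the old lamin B1 list, the chromosome 5 genes stay between 458 and 1819 kb, and the Foxa2 points lie at 65.9 kb or nearer.

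The median distance of the 9 start sites was 681 kb to young lamin B1, 0 kb to old lamin B1, 305 kb to young and 145 kb to old H3K9me3, whereas it was 8.88 kb to a WT and 4.05 kb to a KO Foxa2 site. The medians over autosomal genes were 267 and 105 kb for young and old H3K9me3, and 137 and 95.7 kb for WT and KO Foxa2. Counted by gene, the median of the members was thus farther from young lamin B1 than that of all genes and nearer to Foxa2. Ttr, Rbp4 and Trf were nonetheless nearer to young lamin B1 than the median gene. Alb, Afp and Afm share a locus but enter these medians as separate genes. Their start sites lay 561 to 619 kb from young and 301 to 359 kb from old H3K9me3. No median by locus was taken, so the members are not placed nearer to or farther from H3K9me3 than all genes.

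Base composition divided the members as the old lamin B1 calls did, and not as the young ones did. The windows of Alb, Afp, Afm and Gc had 40.2%, 40.9%, 41.9% and 40.3% G+C, and those of the other 5 members had 44.8% to 47.4%, with Trf and Hpx, which young lamin B1 did not touch, the highest. Over all protein-coding genes the median was 46.3% for windows that touched the old lamin B1 list and 40.1% for those that did not, and 46.1% and 42.7% for the young list. The part of base composition in the calls was not tested. Gene density did not order the members likewise, with 15 protein-coding start sites within 500 kb of Alb, 2 within 500 kb of Gc and 9 to 29 around the others, beside a median of 15. Over all genes the median was 17 where old lamin B1 touched the window and 11 where it did not, and 18 and 13 for the young list. The windows touched by these lists were thus the richer in G+C and in genes. The study cites lamina-associated domains as A/T-rich. In its own motif search A/T-rich motifs were enriched in lamin B1 regions of young livers and CG-rich motifs in those of old livers. The windows here are centred on genes, so their composition is not that of whole domains.

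The share of Foxa2 sites in lamin B1 domains was below that of the lists in young livers and near it in old livers. In young livers the midpoint of 1 of 12 WT sites (the site over the Ttr start site) lay in a lamin B1 domain, beside 35.5% of all WT sites, and in old livers 8 of 12 (66.7%), beside 63.5%. For the KO sites these were 2 of 19 in young livers, beside 28.0% of all KO sites, and 11 of 19 (57.9%) in old livers, beside 49.2%. The second KO site in a young domain was that over the start site of Rbp4. These counts follow the calls of the loci, since of the WT sites only the 2 of Ttr lay in a window that young lamin B1 touched. Sites of a locus are not independent. Lamin B1 and Foxa2 were measured in different mice, which at 12 weeks for Foxa2 were close in age to the young group.

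The members were set beside 3 lists of other secreted liver proteins. Of 15 other plasma carrier and binding proteins, among them Hp, which binds hemoglobin, and Cp, the copper carrier, 6 (40%) had a Foxa2 site called in both genotypes. Of 11 apolipoproteins 6 (54.5%) had one, and of 12 acute phase and fibrinogen genes 10 (83.3%), beside 10.9% of all protein-coding genes. Several of these genes share clusters and hence sites, as Alb, Afp and Afm do. Old lamin B1 touched 10 of 15 carriers (66.7%), 10 of 11 apolipoproteins (90.9%) and 8 of 12 acute phase genes (66.7%), beside 68.5% of all genes. In young livers lamin B1 touched 3 of 15, 6 of 11 and 1 of 12. A count of Foxa2 sites in both genotypes above that of the genome was thus not particular to the 9 members.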

How the data were processed

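Lamin B1, H3K9me3 and Foxa2 ChIP-Seq of mouse liver was analysed from 6 deposited lists. The deposited values are genome positions (mm10) of called regions, without score. The authors aligned reads with BWA, removed duplicates, merged the replicates and ran Epic for lamin B1 domains (windows of 10 kb, gap size of 3) and PeakSeq, with input as control, for Foxa2. The caller of the H3K9me3 regions is not stated in the methods, and the submitters' processing notes name SICER. H3K9me2 was not analysed here. Positions were counted from 1. Gene bodies came from GENCODE vM21, promoters and the alternative bodies from RefSeq (GRCm38.p6). A gene was touched at an overlap of at least 1 bp with its body or its flanks of 50 kb. No test was made, as the replicates were merged in the lists. Scripts used Python 3.11.15, numpy 2.4.6, scipy 1.17.1 and matplotlib 3.10.9, and were tested on simulated data. The members, comparison lists and the named genes (members, genes in their windows, and examples from the carrier list) were chosen with earlier results of these data known. Sequences were shown for the site nearest to each member, outside UTRs, and 1 further shared site of Alb and of Ahsg was chosen after the values were seen. None was printed for Ttr, Afp and Afm. Alternatives were other flanks, gene models, overlaps and region lengths.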

Additional observations from a re-analysis of the deposited data

How the results depend on the processing

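The lists give positions of merged replicates, so no replicate could be left out and no stricter threshold applied. No paired analysis was possible because each condition was deposited as a single merged list and no comparison came from a test. Of 61 alternative values for 14 counts, 42 were within 1.5 times the reported count. With the gene body alone, Foxa2 touched 3 members in the WT and 5 in the KO, with 4 and 6 sites, and old H3K9me3 touched 1. A flank of 10 kb left 1 member for old H3K9me3 and, of the 10 kb windows, 8 for young and 21 for old lamin B1 and 2 and 4 for young and old H3K9me3. A flank of 100 kb gave 3 members for young H3K9me3 and 40, 95, 17 and 34 windows, in that order. These window counts change with the length searched. Requiring 50% of the window to be covered left 0 members for young and 1 for old H3K9me3. The numbers of members touched by lamin B1 were 2 (3 at a flank of 100 kb, with Trf) in young and 5 in old livers under all settings run. A reciprocal overlap of 50% left 7 of the 10 shared WT sites. TGTTTAC was held by 11 of the 31 WT and KO sites, by 4 in the central 200 bp, and 25 held any of the 3 words, an alternative chosen after seeing the data. A region not called may still have had signal, as the depth at these loci is unknown.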

Other observations

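The 1.00 Mb between Gc and Alb (chr5:89457899-90460896) held 5 protein-coding genes, Npffr2, Adamts3, Cox18, Ankrd17 and Gm9958, and no lamin B1 region at either age. It held 7 of the 4960 WT and 10 of the 8177 KO Foxa2 sites, among them upstream sites of Gc and of Alb already described above. No density over the genome was set beside these counts. The lists had 1 H3K9me3 region in this interval at each age, of 180 kb in young (chr5:89720001-89900000) and 90 kb in old livers (chr5:90070001-90160000), and these did not overlap. The interval was chosen after its values were seen.

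Some neighbors of the members lay in the same regions. Fetub, a relative of Ahsg in the Ahsg window, lay in the old lamin B1 domain of Ahsg and not in a young region. Trim3, next to Hpx, lay in the H3K9me3 region of Hpx in young livers, which held 6 protein-coding start sites, while the old region held 12. Old but not young lamin B1 touched 4 of the 11 apolipoprotein genes (36.4%), all of the Apoa1, Apoc3, Apoa4 and Apoa5 cluster. In the acute phase list it so touched 7 of 12 genes (58.3%), the 4 Saa genes, Crp, Itih3 and Itih4. Of all protein-coding genes 28.1% were touched in old and not in young livers. These names were chosen after their values were seen.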
